A study of Mus musculus with 24 samples.

Results

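The genes described here are those of glucose uptake, glycolysis, lactate and pyruvate handling, glycogen metabolism and the hypoxia response. They were chosen by a rule on names, set with earlier results of these data known. The rule took protein-coding mouse genes of the hexokinase, phosphofructokinase, aldolase, phosphoglycerate mutase, enolase, lactate dehydrogenase and pyruvate dehydrogenase kinase families. It also took the phosphoglucomutase, glycogen phosphorylase, glycogen synthase, Slc2a, Slc16a, Egln and Bnip3 families, with Gpi1, Tpi1, Gapdh, Pkm, Pgk1, Gbe1 and Hif1a. Of the 38321 gene IDs in the count tables, 16170 of them protein-coding, 51 were members. Another 12 symbols that fit the names were not analysed here, among them Hif1a, Pfkm, Pfkp, Pgam1, Pygl, Pygm, Gbe1, Egln3 and Slc16a3. Pygo1 and Pygo2, which encode Pygopus coactivators of Wnt signalling, share only the first letters of the phosphorylase symbols and are kept apart below.

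All animals were wild-type female C57BL/6J mice, 11 weeks old at the start, and every one carried a 5-0 silk ligature around the second maxillary molar on both sides from day 7 until collection on day 14, which induces periodontitis. OVXE2 mice had both ovaries removed on day 0 and from day 4 received 1 µg estradiol benzoate a day under the skin, OVX mice had the same operation and received the corn oil vehicle, and Sham mice had sham surgery and vehicle. The dentoalveolar complex (DAC), bone with its teeth after the soft tissue was cleaned off, and the gingiva around the maxillary molars gave 4 poly(A) RNA-seq libraries for each group, 24 in all. Labels name the libraries biological replicates without saying that each is another mouse, so the p-values measure the spread between these libraries. A library held 14771830 to 29248358 gene counts in the DAC and 18598422 to 26001342 in gingiva.

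Glycolysis splits glucose into pyruvate, and pyruvate is reduced to lactate or enters the mitochondria, where pyruvate dehydrogenase kinases hold back its oxidation. Many of these genes are targets of the hypoxia-inducible factors, whose alpha subunits are marked for destruction by the Egln prolyl hydroxylases when oxygen is plentiful, and several exist as isozymes of different tissues, such as the muscle, brain and liver forms. In bone, osteoblasts are known for high aerobic glycolysis, and in mucosa the epithelium and infiltrating leukocytes both rely on it.

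Cell type markers matched the tissue labels. Squamous epithelium markers took 0.0880 to 0.864% of counts in the DAC and 8.20 to 11.1% in gingiva, and osteoblast and osteocyte markers took 6.27 to 9.13% in the DAC and 0.195 to 0.601% in gingiva. Skeletal muscle markers were present in both, at 0.0456 to 0.542% in the DAC and 0.0412 to 0.682% in gingiva, and the highest shares stood in OVXE2 libraries 1 and 4 of gingiva. DAC Sham library 2, the shallowest, held most brain neuron markers (0.0480%), and nasal gland markers took 14.0% of DAC OVX library 1. In bulk tissue, fewer cells of a type and less RNA per cell cannot be told apart.

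Promoters of 5 members are shown first, picked from those lower in DAC than in gingiva and not as a sample of all members. The genes are textbook targets of the hypoxia-inducible factors, which bind ACGTG and GCGTG. Each run covers 250 bases before and 50 bases after the RefSeq start (GRCm38.p6), 5′ to 3′ on the strand of the gene, with ACGTG and GCGTG on either strand in capitals. The places are chrX:106186850-106187149 (+) for Pgk1, chr7:46845554-46845853 (+) for Ldha, chr4:119108495-119108794 (+) for Slc2a1, chr2:71872974-71873273 (+) for Pdk1 and chr7:138909457-138909756 (-) for Bnip3. The Ldha promoter belongs to a start 4329 bases inside the GENCODE gene.
Pgk1: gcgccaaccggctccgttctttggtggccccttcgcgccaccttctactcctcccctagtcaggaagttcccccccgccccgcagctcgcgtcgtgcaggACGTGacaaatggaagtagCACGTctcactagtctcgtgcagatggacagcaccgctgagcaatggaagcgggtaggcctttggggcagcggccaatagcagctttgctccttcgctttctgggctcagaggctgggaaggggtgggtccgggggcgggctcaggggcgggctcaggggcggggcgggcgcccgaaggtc
Ldha: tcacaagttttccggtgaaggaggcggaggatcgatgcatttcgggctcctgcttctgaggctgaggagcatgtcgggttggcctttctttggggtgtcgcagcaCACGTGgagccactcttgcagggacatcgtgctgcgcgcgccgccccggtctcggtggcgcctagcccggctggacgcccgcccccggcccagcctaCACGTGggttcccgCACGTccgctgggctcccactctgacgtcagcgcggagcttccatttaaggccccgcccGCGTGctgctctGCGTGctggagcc
Slc2a1: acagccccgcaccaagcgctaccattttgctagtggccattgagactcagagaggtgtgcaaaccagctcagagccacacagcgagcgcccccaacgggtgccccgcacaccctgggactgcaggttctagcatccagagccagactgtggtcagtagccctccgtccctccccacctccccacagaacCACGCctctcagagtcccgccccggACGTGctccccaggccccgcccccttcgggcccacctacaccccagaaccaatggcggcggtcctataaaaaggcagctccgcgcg
Pdk1: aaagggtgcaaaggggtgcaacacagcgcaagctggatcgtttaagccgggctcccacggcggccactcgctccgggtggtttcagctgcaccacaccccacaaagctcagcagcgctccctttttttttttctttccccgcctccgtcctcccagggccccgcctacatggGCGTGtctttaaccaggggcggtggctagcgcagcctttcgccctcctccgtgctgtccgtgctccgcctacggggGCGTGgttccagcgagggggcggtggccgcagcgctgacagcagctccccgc
Bnip3: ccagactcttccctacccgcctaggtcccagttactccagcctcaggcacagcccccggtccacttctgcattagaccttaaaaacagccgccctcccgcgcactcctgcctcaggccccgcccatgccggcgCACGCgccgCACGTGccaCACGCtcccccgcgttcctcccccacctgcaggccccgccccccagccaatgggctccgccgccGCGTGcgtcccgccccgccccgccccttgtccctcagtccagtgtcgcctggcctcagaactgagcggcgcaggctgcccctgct

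Counted on both strands, so that the palindrome CACGTG counts once on each, the Ldha promoter held 5 ACGTG and 2 GCGTG, the Bnip3 promoter 2 and 3, the Slc2a1 promoter 1 and 1, the Pgk1 promoter 2 and 0 and the Pdk1 promoter 0 and 2. RefSeq promoters were matched for 46 of the 51 members, 66 promoters in all. ACGTG stood in 40.9% of them and in 19.6% of all 32851 promoters of that length, and GCGTG in 48.5% and 32.4%. The member promoters were also richer in G and C, with a median of 60.5% against 52.7% over all promoters, and the part of this in the motif shares was not tested. The letters also stood in promoters of members that were higher in DAC, such as Pfkfb3 with 1 ACGTG and Slc2a6 with 4 GCGTG. Those of Gpi1 and Tpi1, which were lower in DAC, held neither. The motifs were not tested against the difference between the tissues. A match to these letters is a description and not a binding site.

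The tissues differed in most of these genes. In each group the DAC held less of the mRNA of the main glycolytic route, from Slc2a1 and the hexokinases to Ldha, and more of another set of transporters and isozymes, with Slc2a3, Slc2a10, Slc2a6, Eno2 and Ldhb in it. Of the 48 members that passed the filter on low counts, 41 differed between DAC and gingiva in OVXE2 mice (14 higher, 27 lower in DAC), 41 in OVX mice (17 higher, 24 lower) and 41 in Sham mice (16 higher, 25 lower), at an edgeR adjusted p under 0.05 over all genes. The share of all tested genes past the same threshold was 72.1% in OVXE2, 72.4% in OVX and 75.1% in Sham mice, so that passing was common among all genes, and the members' count of 41 of 48 was not tested against it. Higher in DAC were 38%, 38.1% and 39.7% of all genes in these groups, and lower were 34.1%, 34.2% and 35.4%. The median member changed by -0.71, -0.40 and -0.27 on the log2 scale, against 0.03, 0.06 and 0.07 for all genes. The OVXE2 median was -0.31 without gingival OVXE2 libraries 1 and 4, where 38 members passed, and -0.31 with the muscle marker share as a covariate, where 40 passed; both alternatives were added after the data were seen.

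**Figure D1:**
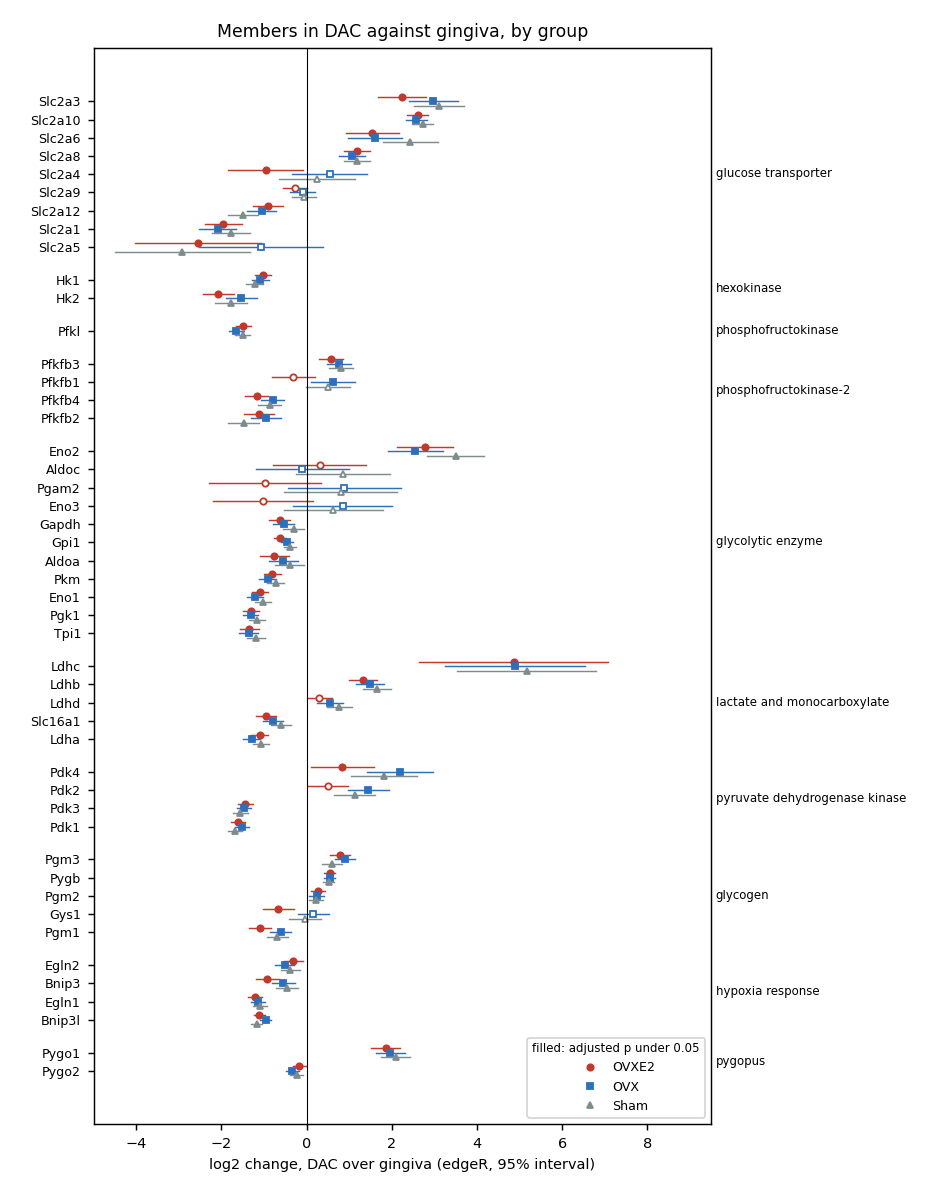
Log2 change of the tested members reported here in DAC over gingiva with its 95% interval, from edgeR fitted to all 24 libraries, for OVXE2 (red circles), OVX (blue squares) and Sham (grey triangles), ordered by role. Filled symbols have an adjusted p under 0.05; the hexokinases, Pfkl, most glycolytic enzymes and the hypoxia response genes lie left of 0 in all 3 groups, and Slc2a3, Slc2a10, Eno2, Ldhb and Ldhc lie right of it.

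Among the transporters, Slc2a1, the basal glucose transporter of most cells, was the most abundant in both tissues. Levels are given as RPKM, scaled over the 24 libraries and divided by exon length, so that genes can be compared. Slc2a1 had 26.1, 22.2, 17.2 and 36.3 RPKM in OVXE2 DAC, 26, 18.3, 16.5 and 19.01 in OVX DAC and 16.9, 21.3, 28.5 and 24.1 in Sham DAC. In gingiva Slc2a1 had 101, 106, 101 and 86.1 RPKM in OVXE2, 93.2, 87.1, 87.3 and 72.3 in OVX and 103, 84.5, 61.2 and 62.5 in Sham mice. Every DAC value lay below every gingival value, and the log2 changes were -1.95 ± 0.21, -2.09 ± 0.21 and -1.78 ± 0.21 (± SE) in OVXE2, OVX and Sham mice, with edgeR adjusted p-values of 4.4e-08, 1.7e-08 and 1.44e-07. Slc2a1 made up 29.9 to 49.9% of the summed RPKM of the Slc2a family in DAC libraries and 78.1 to 88.4% in gingival libraries.

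Slc2a3, a high-affinity glucose transporter known from neurons and leukocytes, had 7.82, 10.2, 7.47 and 8.06 RPKM in Sham DAC and 1.13, 1.02, 0.57 and 1.15 in Sham gingiva. Its log2 changes were 2.25 ± 0.27, 2.98 ± 0.28 and 3.11 ± 0.28 in OVXE2, OVX and Sham mice. The libraries of the tissues did not overlap in any group. The span of Slc2a3, introns included, overlaps the pseudogene Gm4482 on the same strand, so the level is uncertain. Whether counted exons overlap was not examined. Spans of Slc2a1, Pfkfb3, Pkm and Slc16a1 also overlap other annotated genes on the same strand. Slc2a10, a transporter linked to artery and connective tissue disease in humans, had 10.4, 9.94, 10.4 and 9.98 RPKM in Sham DAC and 1.3, 1.84, 1.33 and 1.66 in Sham gingiva. It had the smallest p of all members, with changes of 2.6 ± 0.11, 2.58 ± 0.11 and 2.73 ± 0.12 (adjusted p 8.99e-14, 1.09e-13 and 4.28e-14). Slc2a10 took 15.1 to 21.1% of the family's RPKM in DAC and 1.12 to 2.10% in gingiva.

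Slc2a6, a lysosomal hexose transporter of macrophages, had 5.08, 4.54, 3.68 and 4.79 RPKM in Sham DAC and 1.07, 0.98, 0.504 and 0.767 in Sham gingiva, with log2 changes of 1.54 ± 0.30, 1.6 ± 0.30 and 2.43 ± 0.31 in OVXE2, OVX and Sham. Slc2a8, an intracellular transporter, was also higher in DAC (1.19 ± 0.15, 1.07 ± 0.15 and 1.19 ± 0.15). Slc2a12 went the other way, with 1.21, 1.25, 0.823 and 1.09 RPKM in Sham DAC and 3.12, 3.55, 2.95 and 2.73 in Sham gingiva, and changes of -0.90 ± 0.17, -1.06 ± 0.17 and -1.5 ± 0.17. Slc2a5, the fructose transporter, was low everywhere, with 0.0782, 0.179, 0.0266 and 0.0516 RPKM in Sham DAC and 0.367, 0.37, 1.29 and 0.451 in Sham gingiva. It fell in OVXE2 DAC by 2.55 ± 0.71 and in Sham DAC by 2.91 ± 0.76 on the log2 scale. In OVX mice the value of -1.07 ± 0.70 did not pass (adjusted p 0.173), and it was -2.28 (adjusted p 0.00793) without DAC OVX library 1, the library rich in nasal gland markers, which held 0.423 RPKM. Slc2a4, the insulin-responsive transporter of muscle and fat, was lower in OVXE2 DAC (-0.96 ± 0.42, adjusted p 0.0485), followed the muscle marker share described below, and did not pass in OVX (0.54 ± 0.42) or Sham mice (0.25 ± 0.43). Slc2a9, a urate transporter, did not pass in any group, with changes of -0.27 ± 0.13, -0.10 ± 0.14 and -0.06 ± 0.14.

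The hexokinases, which trap glucose in the cell, were both lower in DAC. Hk2, the inducible form, had 6.99, 7.15, 4.98 and 8.48 RPKM in OVXE2 DAC, 11.5, 8.12, 6.31 and 7.84 in OVX DAC and 6.49, 8.77, 7.91 and 6.82 in Sham DAC. In gingiva it had 34.2, 27.5, 30.1 and 24.2 in OVXE2, 25.8, 19.1, 28.1 and 24.97 in OVX and 29.2, 25.9, 25.3 and 22.4 in Sham mice. No DAC library reached the lowest gingival one, and the changes were -2.07 ± 0.18, -1.53 ± 0.18 and -1.78 ± 0.18 in OVXE2, OVX and Sham. Hk1, the housekeeping form, changed less, by -1.02 ± 0.10, -1.08 ± 0.10 and -1.22 ± 0.10, and its share of the summed RPKM of both was 60.2 to 72.9% in DAC and 52.1 to 62.3% in gingiva, with an overlap.

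Pfkl, the liver-type phosphofructokinase that commits sugar to glycolysis, had 10.9, 11.8, 12.2 and 12.1 RPKM in Sham DAC and 36.98, 36.6, 28.4 and 30.99 in Sham gingiva, and was lower in DAC by 1.49 ± 0.09, 1.65 ± 0.09 and 1.5 ± 0.09 on the log2 scale in OVXE2, OVX and Sham mice. The bifunctional Pfkfb enzymes make and degrade its sugar bisphosphate activator. Among them Pfkfb3, the form with the strongest kinase activity, was higher in DAC (0.56 ± 0.13, 0.77 ± 0.14 and 0.80 ± 0.14), while Pfkfb4 (-1.17 ± 0.13, -0.80 ± 0.13 and -0.87 ± 0.13) and Pfkfb2 were lower. Pfkfb2 had 1.18, 1.05, 0.868 and 0.823 RPKM in Sham DAC and 2.68, 2.87, 2.31 and 3.08 in Sham gingiva, with changes of -1.11 ± 0.17, -0.96 ± 0.17 and -1.48 ± 0.17. Its span overlaps that of the gene Gm29427 on the same strand, so the Pfkfb2 level is uncertain. Pfkfb3 formed 48.1 to 64.6% of the summed RPKM of the Pfkfb genes in DAC and 18.8 to 35.8% in gingiva, with no overlap.

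The enzymes of the later steps were mostly lower in DAC: of the 12 glycolytic enzymes tested, 7 were lower, 2 higher and 3 did not pass in each of the 3 groups. Over all genes, 34.1 to 35.4% were lower and 38 to 39.7% higher in DAC, and 72.1 to 75.1% passed in either direction. The enzyme counts were not tested against these shares. Pgk1, which makes ATP in the pay-off phase, had 62.4, 63.2, 61.7 and 66.2 RPKM in OVXE2 DAC, 60.2, 62.5, 53.8 and 64.97 in OVX DAC and 56.5, 69.9, 64.2 and 71.1 in Sham DAC. In gingiva Pgk1 had 164, 151, 160.4 and 149.5 RPKM in OVXE2, 151, 164, 139.7 and 146 in OVX and 165, 160.1, 133 and 129 in Sham mice. The tissues did not overlap, and the log2 changes were -1.3 ± 0.09, -1.31 ± 0.09 and -1.17 ± 0.09 in OVXE2, OVX and Sham. Eno1, the common enolase, changed by -1.09 ± 0.09, -1.21 ± 0.09 and -1.02 ± 0.09, and Tpi1, triose phosphate isomerase, by -1.34 ± 0.11, -1.36 ± 0.11 and -1.19 ± 0.11.

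Pkm, which makes pyruvate, had 189.5, 179, 196 and 201 RPKM in OVXE2 DAC, 169, 192, 164 and 190.5 in OVX DAC and 187, 208, 188 and 193 in Sham DAC. In gingiva Pkm had 334, 344, 339 and 318 RPKM in OVXE2, 333, 365, 334 and 322 in OVX and 380.0, 345, 263 and 296 in Sham mice. It was lower in every DAC library than in every gingival one, with changes of -0.80 ± 0.10, -0.92 ± 0.10 and -0.73 ± 0.10. Gapdh, often used as a reference gene, had 142, 125, 183 and 149.5 RPKM in OVXE2 DAC, 124, 166, 134 and 154 in OVX DAC and 142, 174, 144 and 175 in Sham DAC. In gingiva Gapdh had 246, 221, 215 and 244 RPKM in OVXE2, 208, 224, 197 and 211 in OVX and 218, 209, 168 and 187 in Sham mice. It fell in OVXE2 DAC by 0.63 ± 0.12, in OVX DAC by 0.54 ± 0.12 and in Sham DAC by 0.30 ± 0.12 (adjusted p 6.94e-05, 0.000357 and 0.0259), and in Sham mice, where the tissues overlapped, the call was lost without gingival Sham library 1 or 2 or DAC Sham library 1 or 3, with adjusted p-values of 0.0682 to 0.0849. Gapdh, Ldha, Pgk1 and Eno1 have processed pseudogenes, and reads that map to several places were not counted for any gene.

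Gpi1, which turns glucose phosphate into fructose phosphate, was lower in DAC by 0.63 ± 0.07, 0.46 ± 0.07 and 0.39 ± 0.07 on the log2 scale in OVXE2, OVX and Sham, and Aldoa, the muscle-type aldolase, by 0.76 ± 0.16, 0.54 ± 0.16 and 0.40 ± 0.16. Eno3 and Pgam2, the muscle forms of enolase and phosphoglycerate mutase, did not pass in any group. Eno3 had 32.4, 13.8, 96.8 and 44.8 RPKM in OVXE2 DAC and 164, 63.5, 43.6 and 111 in OVXE2 gingiva, a spread that followed the muscle marker share described below. Aldoc, the brain aldolase, did not pass either (0.31 ± 0.52, -0.10 ± 0.53 and 0.86 ± 0.53), and its highest value was 32.2 RPKM in DAC Sham library 2.

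An enolase isozyme known from another tissue ran the other way. Eno2, the neuronal enolase, had 3.76, 12.2, 5.49 and 6.82 RPKM in Sham DAC and 0.557, 0.615, 0.711 and 0.618 in Sham gingiva. All 12 DAC libraries, at 3.33 RPKM or more, exceeded all 12 gingival ones, at 0.935 or less, and the changes were 2.78 ± 0.31, 2.55 ± 0.31 and 3.5 ± 0.32. The highest value was that of DAC Sham library 2, the library with most brain neuron markers. The Sham change was 3.10 (adjusted p 2.81e-10) without that library and DAC OVX library 1. Brain neuron markers took 0.003515 to 0.0480% of counts in DAC libraries and 0.001065 to 0.002102% in gingival ones, also without overlap. Their part in the Eno2 difference was not tested.

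**Figure D2:**
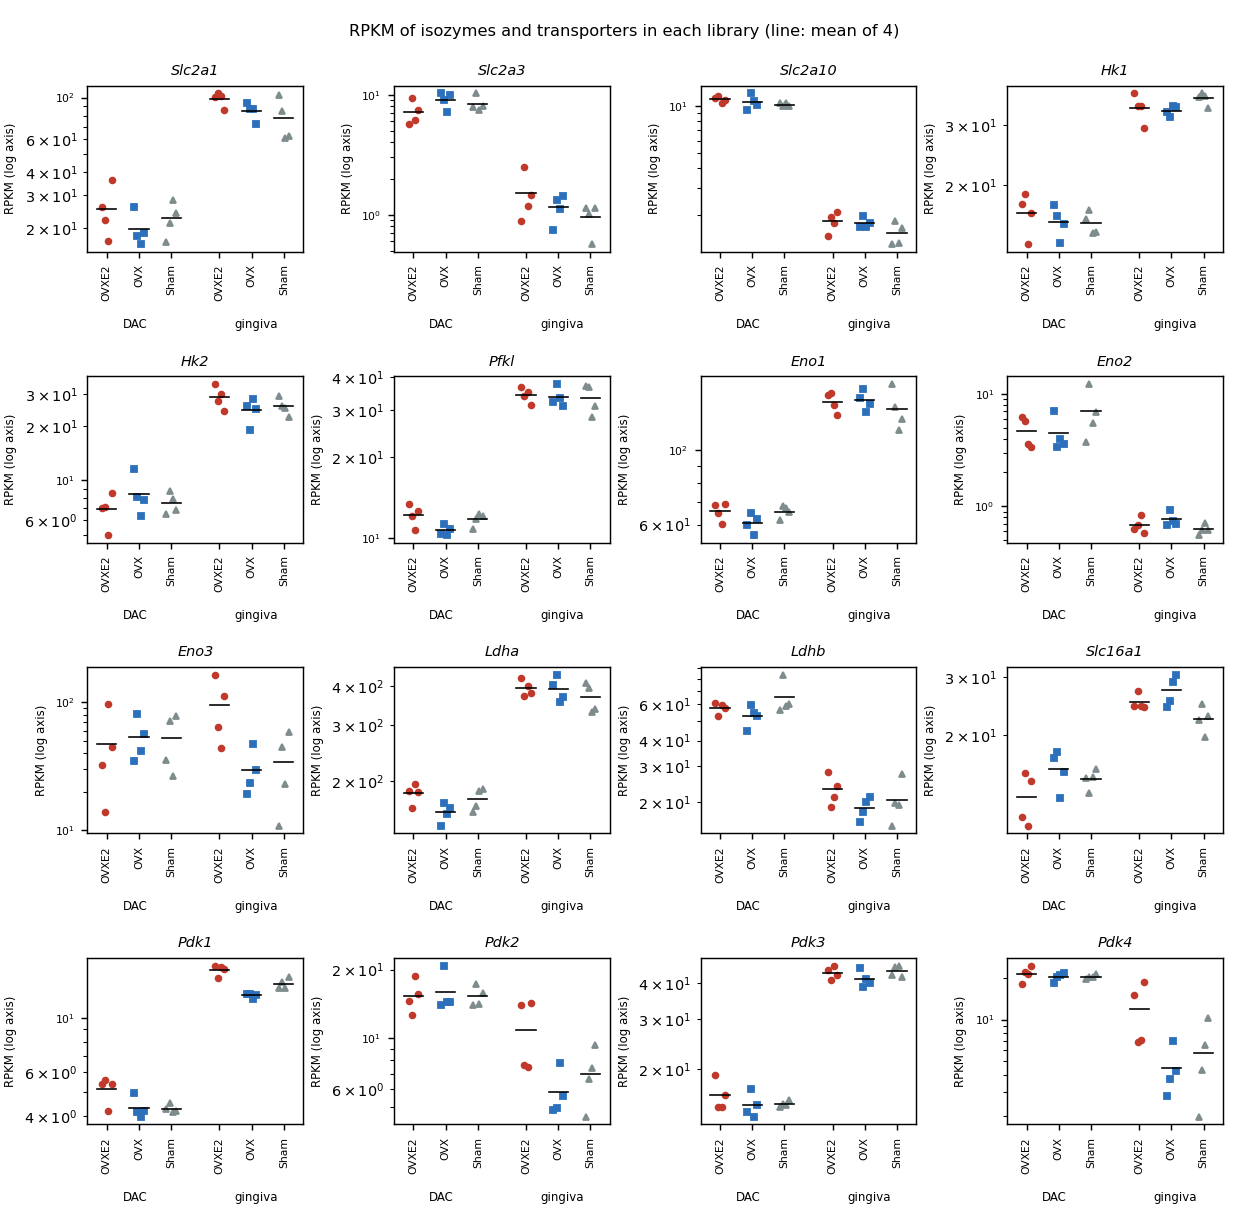
RPKM of 16 transporters and isozymes in each of the 24 libraries (points) on log axes, with the mean of 4 libraries as a line, for OVXE2, OVX and Sham in DAC (left) and gingiva (right). Slc2a1, Hk1, Hk2, Pfkl, Eno1, Ldha, Pdk1 and Pdk3 are lower in every DAC library than in any gingival one, Slc2a3, Slc2a10, Eno2 and Ldhb are higher, and Eno3 overlaps.

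The forms of lactate dehydrogenase differed in direction. Ldha, the form favouring lactate, had 187, 164, 196 and 186 RPKM in OVXE2 DAC, 144, 171, 157 and 164 in OVX DAC and 159.5, 167, 186 and 189 in Sham DAC. In gingiva Ldha had 423, 370.4, 400.4 and 381 RPKM in OVXE2, 402, 434, 356 and 368 in OVX and 409.5, 393, 330.4 and 338 in Sham mice. The tissues did not overlap, with changes of -1.1 ± 0.09, -1.29 ± 0.09 and -1.07 ± 0.09 in OVXE2, OVX and Sham. Ldhb, the heart form, had 61.1, 52.5, 59.6 and 57.6 RPKM in OVXE2 DAC, 44.7, 59.6, 54.5 and 52.5 in OVX DAC and 56.2, 83.6, 59.1 and 60.5 in Sham DAC. In gingiva Ldhb had 28.1, 19.01, 21.3 and 24.1 RPKM in OVXE2, 16.1, 17.9, 20.03 and 21.4 in OVX and 15.4, 19.9, 19.4 and 27.5 in Sham mice. It rose in DAC by 1.32 ± 0.16, 1.49 ± 0.16 and 1.66 ± 0.16, and Ldhb formed 23.3 to 33.4% of the family's RPKM in DAC and 3.62 to 7.54% in gingiva. Slc16a1, a monocarboxylate transporter that carries lactate, was lower in DAC (-0.95 ± 0.12, -0.79 ± 0.12 and -0.60 ± 0.12), and Ldhd, which oxidises D-lactate, was higher in OVX (0.55 ± 0.14) and Sham DAC (0.77 ± 0.14) and did not pass in OVXE2 mice (0.30 ± 0.14, adjusted p 0.0657).

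Ldhc, known as the testis form, was found almost only in DAC, with 16, 54 and 49 counts over the 4 DAC libraries of OVXE2, OVX and Sham mice and 0, 1 and 1 over the gingival ones. That is at least 4.56-fold higher in OVXE2 DAC, against 3 counts over the group, and 42.0-fold (95% exact interval 7.22 to 1690) and 50.7-fold (8.68 to 2040) higher in OVX and Sham DAC; the intervals cover counting error only. Ldhc is the neighbour of Ldha on chromosome 7, at 46861203 to 46878142 against 46841475 to 46855627 (GRCm38). Whether reads of the abundant Ldha reached Ldhc was not tested.

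The pyruvate dehydrogenase kinases also differed in direction. Pdk1, a hypoxia-inducible form, had 5.39, 5.61, 4.18 and 5.37 RPKM in OVXE2 DAC, 4.96, 4.15, 3.97 and 4.2 in OVX DAC and 4.26, 4.49, 4.15 and 4.2 in Sham DAC. In gingiva Pdk1 had 16.2, 14.5, 16.1 and 15.7 RPKM in OVXE2, 12.4, 12.5, 11.9 and 12.4 in OVX and 13.2, 13.9, 13.2 and 14.6 in Sham mice. The tissues were far apart, with changes of -1.6 ± 0.08, -1.51 ± 0.08 and -1.68 ± 0.08 (adjusted p 4.17e-13, 9.95e-13 and 1.82e-13). Pdk3 had 14.7, 15.02, 14.9 and 15.5 RPKM in Sham DAC and 42.9, 45.6, 46.1 and 42.2 in Sham gingiva, with changes of -1.44 ± 0.08, -1.48 ± 0.08 and -1.55 ± 0.08. Pdk4, induced by fasting and by fatty acids, had 19.6, 20.2, 20.3 and 21.3 RPKM in Sham DAC and 1.99, 4.32, 6.53 and 10.2 in Sham gingiva. It rose in DAC by 0.84 ± 0.36, 2.19 ± 0.38 and 1.82 ± 0.37. In OVXE2 mice the tissues overlapped, the adjusted p was 0.0406, and it was 0.0578 to 0.126 without gingival OVXE2 library 2 or 3 or DAC OVXE2 library 2, 3 or 4. Pdk4 followed the muscle marker share in gingiva, as described below. Its OVXE2 change was 1.61 (adjusted p 0.00233) without gingival OVXE2 libraries 1 and 4 and 1.39 (adjusted p 0.00167) with that share as a covariate. The edgeR call was lost without DAC Sham library 2 and DAC OVX library 1 (0.84, adjusted p 0.0513). It was also lost with only the libraries holding over 5% of counts on the other strand (0.67, adjusted p 0.308). All of these settings were added after the data were seen. Pdk2 was higher in DAC of OVX (1.45 ± 0.23) and Sham mice (1.13 ± 0.23) and did not pass in OVXE2 mice (0.51 ± 0.23, adjusted p 0.0518). Pdk3 was the leading form in gingiva, with 46.9 to 69.1% of the summed RPKM against 24.9 to 33.4% in DAC, and Pdk4 took 31.6 to 40% in DAC and 3.18 to 20.4% in gingiva.

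The glycogen genes were split. Pygb, the brain-type phosphorylase that frees glucose from glycogen, was higher in DAC by 0.54 ± 0.06, 0.54 ± 0.06 and 0.52 ± 0.06 on the log2 scale in OVXE2, OVX and Sham. Pgm1, which links glycogen to glycolysis, was lower (-1.1 ± 0.12, -0.61 ± 0.12 and -0.68 ± 0.12), Pgm2 was higher (0.27 ± 0.08, 0.24 ± 0.08 and 0.22 ± 0.08), and so was Pgm3, which serves amino sugar synthesis (0.78 ± 0.11, 0.91 ± 0.11 and 0.60 ± 0.11). The names Pgm1 and Pgm2 follow GENCODE, and RefSeq lists each as a synonym of the other. Gys1, the muscle-type glycogen synthase, had 8.04, 8.19, 10.2 and 10.4 RPKM in OVXE2 DAC, 9.14, 11.9, 8.29 and 10.3 in OVX DAC and 7.83, 10.6, 7.48 and 8.66 in Sham DAC. In gingiva Gys1 had 18.8, 12.5, 10.6 and 16.4 RPKM in OVXE2, 7.3, 8.44, 10.7 and 9.06 in OVX and 8.49, 10.9, 6.64 and 9.3 in Sham mice. It was lower in DAC of OVXE2 mice (-0.67 ± 0.18, adjusted p 0.00220), but at -0.33 (adjusted p 0.136) without gingival OVXE2 libraries 1 and 4, and it did not pass in OVX (0.16 ± 0.18) or Sham mice (-0.04 ± 0.18).

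All 4 hypoxia response genes were lower in DAC in every group. Bnip3, a mitophagy receptor induced by hypoxia, had 23.1, 19.1, 21.97 and 26.2 RPKM in OVXE2 DAC, 21.02, 22.8, 19.3 and 19.7 in OVX DAC and 18.2, 21.9, 24.2 and 26.3 in Sham DAC. In gingiva Bnip3 had 48.7, 38.1, 43.2 and 40.6 RPKM in OVXE2, 31, 32.98, 27.7 and 29.1 in OVX and 35, 36.4, 29.4 and 24.5 in Sham mice. The groups overlapped in Sham mice only, and the changes were -0.92 ± 0.13, -0.54 ± 0.13 and -0.47 ± 0.13. Bnip3l, its relative, changed by -1.11 ± 0.06, -0.96 ± 0.06 and -1.17 ± 0.06, Egln1, the main oxygen-sensing prolyl hydroxylase, by -1.22 ± 0.08, -1.14 ± 0.08 and -1.09 ± 0.08, and Egln2 by -0.31 ± 0.11, -0.51 ± 0.11 and -0.39 ± 0.11. Of all genes, 38%, 38.1% and 39.7% were higher and 34.1%, 34.2% and 35.4% lower in OVXE2, OVX and Sham DAC. The wider list of hypoxia sensors and targets outside the rule moved both ways: 13 rose and 15 fell of 31 tested in OVXE2 DAC, 14 and 14 in OVX DAC and 13 and 14 in Sham DAC. In Sham mice the 4 of smallest p were Car12 (-2.77 ± 0.15), a carbonic anhydrase, Plod1 (2.25 ± 0.14), a lysyl hydroxylase of collagen, Higd1a (-1.98 ± 0.12), a mitochondrial protein, and P4ha1 (1.84 ± 0.12), a collagen prolyl hydroxylase.

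Of the other glycolysis and pyruvate genes, 14 rose and 7 fell of 25 tested in OVXE2 DAC, 13 and 4 in OVX DAC and 15 and 5 in Sham DAC. The Sham changes of smallest p were those of Pck2, mitochondrial PEP carboxykinase (2.00 ± 0.12), Adpgk, a glucokinase that uses ADP (1.10 ± 0.11), Slc16a4, a monocarboxylate transporter relative (2.70 ± 0.27), and G6pc3, a glucose phosphatase (0.79 ± 0.09). Of the other glycogen genes, 4 rose and 6 fell of 17 in OVXE2 DAC, 8 and 3 in OVX DAC and 8 and 3 in Sham DAC, with Gabarapl1 (1.16 ± 0.08) and Phkb (-1.58 ± 0.12), a phosphorylase kinase subunit, of smallest p in Sham mice. Among all genes, 38 to 39.7% rose and 34.1 to 35.4% fell in DAC of these groups, 72.1 to 75.1% in either direction. The counts of these lists were not tested against those shares. Of the Pygopus pair, which is no part of this metabolism, Pygo1 was higher in DAC (1.85 ± 0.16, 1.96 ± 0.16 and 2.09 ± 0.16), with 3.09, 4.08, 3.74 and 2.75 RPKM in Sham DAC and 0.673, 0.895, 0.726 and 0.908 in Sham gingiva, and Pygo2 slightly lower (-0.17 ± 0.07, -0.33 ± 0.07 and -0.23 ± 0.07).

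Between the hormonal groups within a tissue the differences were smaller, and no member passed the edgeR test. In gingiva of OVXE2 mice against OVX mice, 38 of the 46 members tested had a positive log2 change and 8 a negative one, with a median of 0.13 against -0.0046 for all genes. The median was 0.07 without OVXE2 libraries 1 and 4, the richest in muscle markers, and 0.14 with the muscle marker share as a covariate. The edgeR test called 0 members and 0% of all 12680 genes. At an unadjusted p under 0.05 there were 14 of the 46 members, against 1766 of 12680 genes (13.9%). All 4 OVXE2 values lay above all 4 OVX values for 5 of the 46 members, against 401 of 12680 genes (3.16%). The member counts were not tested against these shares. By DESeq2, 4 members passed (Pdk1, Pgm1, Bnip3 and Gys1, of 91 genes in all), and by limma-voom 0, with 14 members at an unadjusted p under 0.05 by each. Without gingival OVX library 3 edgeR called 2 members, Pdk1 and Pgm1, both with an adjusted p of 0.0463, among 60 genes in all.

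Pdk1 had the smallest p of the members in this comparison. It had 119.9, 108, 119 and 116 CPM (scaled within gingiva) in OVXE2, 91.8, 93.6, 88.1 and 92.3 in OVX and 98.7, 104, 98.2 and 108 in Sham gingiva. The OVXE2 libraries all lay above the OVX ones, the OVX ones lay below the Sham ones, and OVXE2 and Sham overlapped at 1 library. The log2 change was 0.34 ± 0.05 for OVXE2 against OVX (95% interval 0.23 to 0.45, adjusted p 0.108), 0.18 ± 0.05 for OVXE2 against Sham (adjusted p 0.630) and -0.16 ± 0.05 for OVX against Sham (adjusted p 0.376). These comparisons share libraries. In DAC, Pdk1 had 42.5, 44.8, 35.4 and 42.5 CPM (scaled within DAC) in OVXE2, 39.6, 33.2, 33.2 and 33.9 in OVX and 35.2, 36.9, 34.6 and 34.9 in Sham mice. There the OVXE2 libraries overlapped with both other groups, and the change against OVX was 0.24 ± 0.09 (adjusted p 0.275). The difference of these effects, DAC minus gingiva, was -0.09 ± 0.11 (adjusted p 0.840).

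Pgm1 had 104, 78.7, 80.2 and 99.3 CPM in OVXE2, 58.2, 62.01, 61.2 and 62.05 in OVX and 64.6, 74.7, 64.9 and 67.7 in Sham gingiva. OVXE2 exceeded both other groups without overlap, with log2 changes of 0.57 ± 0.09 against OVX (interval 0.38 to 0.77, adjusted p 0.113) and 0.41 ± 0.09 against Sham (adjusted p 0.623). The 2 highest values were those of OVXE2 libraries 1 and 4, which also held most muscle markers, and the change against OVX was 0.38 without them and 0.43 with the muscle marker share as a covariate. Bnip3 had 105, 82.4, 93.02 and 88 CPM in OVXE2, 66.6, 71.98, 59.7 and 63.1 in OVX and 76.04, 78.99, 63.7 and 52.98 in Sham gingiva. Again OVXE2 stood above both groups, by 0.49 ± 0.12 against OVX (adjusted p 0.238) and 0.44 ± 0.12 against Sham (adjusted p 0.630), and the change against OVX was 0.42 without OVXE2 libraries 1 and 4 and 0.57 with the muscle covariate. Pfkfb1, the liver and muscle form of its family, was the other member above both groups, at 0.83 ± 0.23 and 0.79 ± 0.23.

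Gys1 had 85.5, 57.1, 48.4 and 74.9 CPM in OVXE2, 33.1, 38.96, 48.96 and 41.6 in OVX and 38.98, 50.1, 30.4 and 42.5 in Sham gingiva. The lowest OVXE2 library overlapped with the other groups, and the log2 change against OVX was 0.71 ± 0.19 (adjusted p 0.290), but 0.37 without OVXE2 libraries 1 and 4 and 0.35 with the muscle covariate. The other members of the panel did not pass between OVXE2 and OVX gingiva, with Slc2a1 at 0.21 ± 0.15, Hk2 at 0.24 ± 0.13, Gapdh at 0.14 ± 0.09, Pgk1 at 0.05 ± 0.09, Ldha at 0.01 ± 0.09 and Pkm at -0.03 ± 0.10, with adjusted p-values of 0.410 to 0.978. Ldha had 1328, 1170, 1258 and 1205 CPM in OVXE2 gingiva and 1264, 1383, 1121 and 1166 in OVX gingiva, with full overlap. The interval of its change, -0.19 to 0.20, bounds what these libraries allow.

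**Figure D3:**
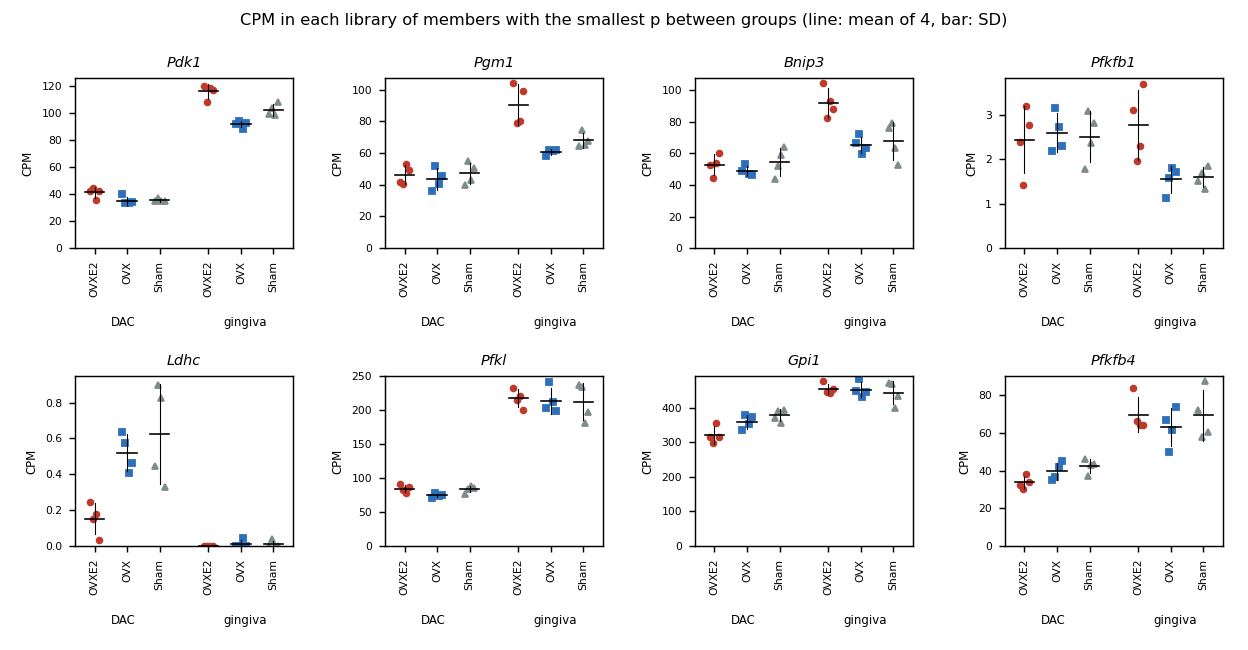
CPM of 8 members picked from those of small p between groups, not the 8 of smallest p, in each library (points), with the mean and SD of 4 libraries, scaled within each tissue, for OVXE2, OVX and Sham in DAC (left) and gingiva (right). Pdk1, Pgm1 and Bnip3 in OVXE2 gingiva lie above all OVX values, and Ldhc in OVXE2 DAC lies below all OVX and Sham values at 1 to 7 counts a library.

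In gingiva of OVXE2 mice against Sham mice, 38 members were again positive and 8 negative, with a median of 0.14, which was 0.09 without OVXE2 libraries 1 and 4. No member passed by edgeR (0% of all genes). Of the 46 members, 14 had an unadjusted p under 0.05, against 939 of 12680 genes (7.41%). Without overlap, 4 of the 46 lay above Sham, against 286 of 12680 genes (2.26%). The member counts were not tested against these shares. DESeq2 called 1 member, Pgm1 (adjusted p 0.0382), of 8 genes in all, and limma-voom 0, with 16 and 15 at an unadjusted p under 0.05. The panel changes were Slc2a1 0.33 ± 0.15, Hk2 0.17 ± 0.13, Gapdh 0.24 ± 0.09, Pgk1 0.08 ± 0.09, Ldha 0.09 ± 0.09, Pkm 0.05 ± 0.10 and Gys1 0.71 ± 0.19. For removal of the ovaries alone, in OVX against Sham gingiva 20 members were positive and 26 negative, with a median of -0.02 that lay above 0, at 0.01 to 0.02, without Sham library 2 or 4 or OVX library 1. No member passed by edgeR (0%), DESeq2 or limma-voom. Of the 46 members, 4 had an unadjusted p under 0.05 by edgeR, 4 by DESeq2 and 3 by limma-voom. By edgeR, 1530 of 12680 genes (12.1%) had one.

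The smallest p in that comparison was that of Slc16a1, with 102, 108, 122 and 129 CPM in OVX gingiva and 94.3, 105, 83.8 and 96.6 in Sham gingiva. The groups overlapped, and the log2 change was 0.28 ± 0.08 (adjusted p 0.376). Pfkfb2 had 17.4, 12.99, 16.7 and 15 CPM in OVX and 18.6, 19.9, 15.99 and 21.4 in Sham gingiva, an overlapping pair with a change of -0.29 ± 0.11 (adjusted p 0.378). The panel changes for OVX against Sham were Slc2a1 0.13 ± 0.15, Hk2 -0.07 ± 0.13, Gapdh 0.10 ± 0.09, Pgk1 0.03 ± 0.09, Ldha 0.08 ± 0.09, Pkm 0.08 ± 0.10, Bnip3 -0.06 ± 0.12 and Gys1 0.0047 ± 0.19.

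**Figure D4:**
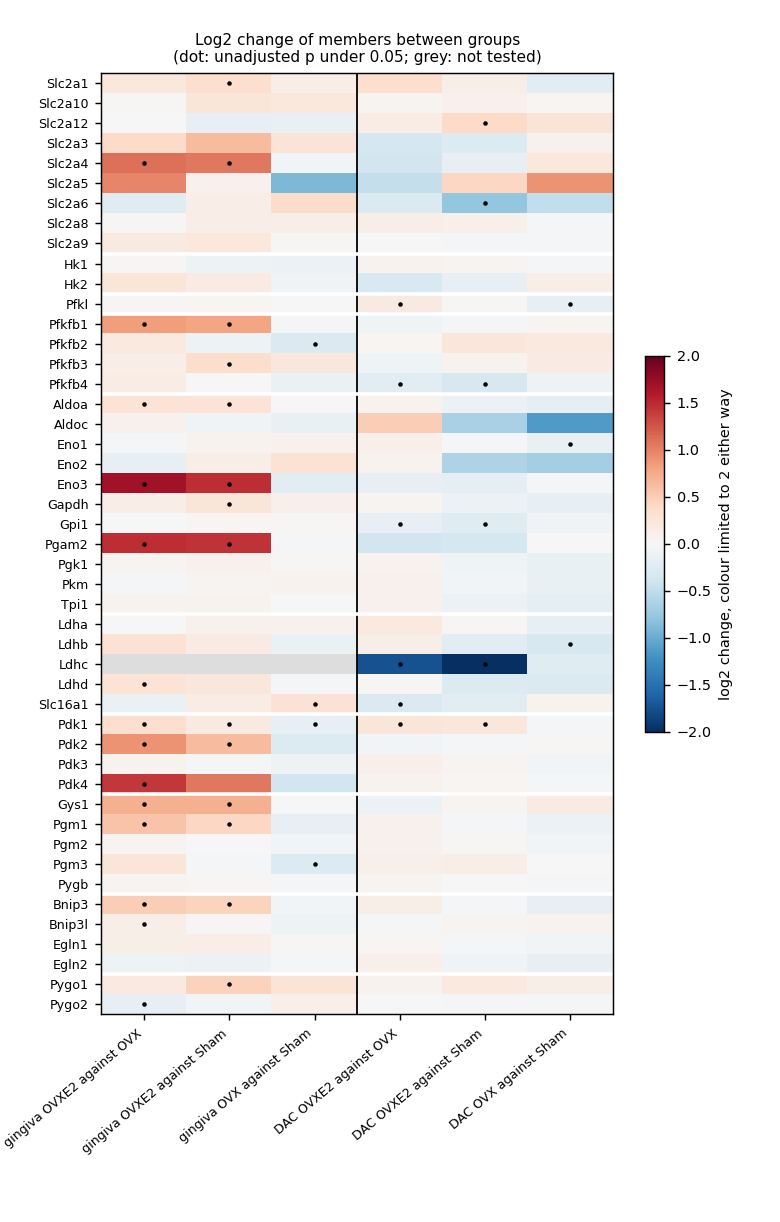
Log2 change of the tested members reported here (rows, by role) in the 6 comparisons of groups within gingiva (left 3 columns) and DAC (right 3 columns), in colour, red for higher in the group named first and blue for lower. Dots mark an unadjusted p under 0.05; no cell passed the adjusted threshold, and the darkest cells are the muscle forms Eno3 and Pgam2 in OVXE2 gingiva (red) and Ldhc in OVXE2 DAC (blue).

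In DAC, OVXE2 against OVX gave 32 positive and 16 negative members of 48 tested, with a median of 0.05 against 0.02 for all genes. That surplus rested on single libraries: the median was 0.0040, with 24 positive and 24 negative, without OVXE2 library 3, and 0.0093, with 25 and 23, without OVX library 1. No member passed by edgeR although 290 genes did (2.13%), and 0 passed by DESeq2 and limma-voom. At an unadjusted p under 0.05 there were 6, 9 and 7 of the 48 members by the 3 tools, against 1366 of 13617 genes (10%) by edgeR. Against Sham 19 were positive and 29 negative, with a median of -0.04. This direction turned with the muscle marker share as a covariate (30 positive and 18 negative, median 0.01), without OVXE2 library 2 (27 and 21, 0.02) and without Sham library 4 (25 and 23, 0.0075). No member passed by edgeR while 143 genes did (1.05%). DESeq2 called 1 member, Ldhc, of 340 genes in all, and limma-voom 0. Each tool had 6 of the 48 members at an unadjusted p under 0.05, against 1194 of 13617 genes (8.77%) by edgeR. OVX against Sham gave 16 positive and 32 negative, a median of -0.05, and no call by any of the tools (0% of genes by edgeR). There each tool had 3 of the 48 members at an unadjusted p under 0.05, against 437 of 13617 genes (3.21%) by edgeR. The member counts were not tested against these shares.

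Ldhc had the largest change between DAC groups, at very low counts: 7, 4, 4 and 1 in the OVXE2 libraries, 16, 14, 10 and 14 in OVX and 11, 14, 17 and 7 in Sham. Both other groups lay above OVXE2, OVX without overlap and Sham with a tie at 7 counts but none in CPM. The fitted log2 changes were -1.75 ± 0.49 against OVX (adjusted p 0.121) and -1.99 ± 0.49 against Sham (adjusted p 0.109, and 0.0348 by DESeq2). B lineage cell markers moved with it, at 0.00480 to 0.00741% of counts in OVXE2 DAC, 0.0199 to 0.0276% in OVX and 0.0106 to 0.0158% in Sham, and 7 of the 8 listed markers were lower in OVXE2 than in OVX by edgeR. Immature neutrophil markers were also lowest in OVXE2, at 0.124 to 0.172% in OVXE2, 0.315 to 0.447% in OVX and 0.210 to 0.464% in Sham DAC, and the part of either in Ldhc was not tested.

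Pfkl had 90.5, 82.9, 77.9 and 86.2 CPM in OVXE2 DAC, 70.7, 77.6, 73.7 and 75.2 in OVX and 77.05, 83.2, 87.6 and 85.97 in Sham. OVXE2 lay just above OVX, by 0.18 ± 0.07 (adjusted p 0.270), and the OVX against Sham value was -0.17 ± 0.07 (adjusted p 0.874). Gpi1 had 315, 297, 356 and 314 CPM in OVXE2 and 370.2, 389.7, 356 and 394 in Sham DAC, a change of -0.23 ± 0.07 (adjusted p 0.261) with 1 OVXE2 library inside the Sham range. Pfkfb4 had 32.6, 30.3, 38.3 and 33.9 CPM in OVXE2 and 45.98, 36.9, 43.2 and 43.3 in Sham DAC, a change of -0.33 ± 0.10 (adjusted p 0.268) with an overlap of 1 library. Ldhb, at -0.32 ± 0.13, and Eno1, at -0.14 ± 0.06, had the next smallest p-values for OVX against Sham (adjusted p 0.874 for both). Ldhb had 71.97, 96.5, 91.96 and 85.5 CPM in OVX and 93.7, 138, 99.5 and 102 in Sham DAC. Eno1 had 331, 360.2, 323 and 348 CPM in OVX and 353, 388, 388 and 375 in Sham DAC. Both overlapped between the groups, and the Ldhb value was -0.18 without Sham library 2, the highest and the library with most brain neuron markers.

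No panel member passed between DAC groups by edgeR. For OVXE2 against OVX the log2 changes were Slc2a1 0.34 ± 0.22, Hk2 -0.30 ± 0.18, Pgk1 0.06 ± 0.08, Gapdh 0.05 ± 0.14, Pkm 0.09 ± 0.08, Ldha 0.19 ± 0.09, Bnip3 0.12 ± 0.12 and Gys1 -0.11 ± 0.14. For OVXE2 against Sham they were 0.12 ± 0.22, -0.16 ± 0.18, -0.08 ± 0.08, -0.12 ± 0.14, -0.06 ± 0.08, 0.03 ± 0.09, -0.04 ± 0.12 and 0.06 ± 0.14 in the same order, with Pdk1 at 0.22 ± 0.09. For OVX against Sham they were -0.22 ± 0.22, 0.14 ± 0.18, -0.15 ± 0.08, -0.17 ± 0.14, -0.15 ± 0.08, -0.17 ± 0.09, -0.16 ± 0.12 and 0.17 ± 0.14, with Pdk1 at -0.02 ± 0.09. Between OVXE2 and OVX, Slc2a1 was at 0.13 without OVXE2 library 4 and Hk2 at -0.12 without OVX library 1. For OVX against Sham, Slc2a1 was at -0.09 without Sham library 3. A p that misses the threshold does not show that the groups are alike.

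Of the pathway genes outside the rule, 3 passed between DAC groups. Plod2, a collagen lysyl hydroxylase and hypoxia target, rose in OVXE2 DAC by 0.70 ± 0.10 against OVX (adjusted p 0.00363) and by 0.60 ± 0.10 against Sham (adjusted p 0.0163). Stc2, a secreted glycoprotein induced by hypoxia and by estrogen, rose by 0.61 ± 0.12 (adjusted p 0.0232) and 0.63 ± 0.12 (adjusted p 0.0356). Adpgk fell by 0.59 ± 0.13 against OVX (adjusted p 0.0357) and was at -0.49 ± 0.13 against Sham (adjusted p 0.134). Against OVX these were 2 of 31 hypoxia genes and 1 of 25 glycolysis and pyruvate genes, beside 2.13% of all genes, and against Sham 2 of 31 hypoxia genes, beside 1.05%. In OVXE2 against OVX gingiva, 9 of 17 glycogen genes, 3 of 23 glycolysis and pyruvate genes and 5 of 30 hypoxia genes had an unadjusted p under 0.05, beside 13.9% of all genes. Phka1, a muscle phosphorylase kinase subunit (0.66 ± 0.20, adjusted p 0.299), was among the glycogen genes of smallest p and did not pass. Muscle markers stood higher in the same libraries, as given next, and their part in these values was not tested.

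Differences of the hormonal effects between the tissues were tested in the fit of all 24 libraries. By edgeR no member passed for OVXE2 against OVX (0.19% of all genes did), OVXE2 against Sham (0.0633%) or OVX against Sham (0%), and DESeq2 and limma-voom called 0 as well. At an unadjusted p under 0.05 edgeR had 9, 11 and 3 of the 48 members, against 1252, 1110 and 1212 of 14209 genes (8.81%, 7.81% and 8.53%). DESeq2 had 11, 14 and 4 of the 48 members and limma-voom 10, 14 and 2. The member counts were not tested against these shares. The smallest p for OVXE2 against OVX was that of Gys1, whose change in DAC minus that in gingiva was -0.82 ± 0.25 (adjusted p 0.292), followed by Pdk2 (-0.95 ± 0.32) and Pgm1 (-0.49 ± 0.17). Pdk2 had 46.7, 40.99, 64.4 and 50.4 CPM in OVXE2 DAC and 45.5, 67.8, 48.9 and 47.2 in OVX DAC, and 41.9, 23.1, 22.4 and 43.1 in OVXE2 gingiva and 14.6, 15.2, 23.5 and 16.9 in OVX gingiva. All 13 skeletal muscle markers were also higher in OVXE2 than in OVX gingiva and lower in OVXE2 than in OVX DAC, and with the muscle marker share as a covariate the values were -0.34 for Gys1, -0.27 for Pdk2 and -0.16 for Pgm1. Without gingival OVXE2 libraries 1 and 4 they were -0.49, -0.42 and -0.30. For OVXE2 against Sham the smallest p-values were those of Gpi1 (-0.24 ± 0.09), Bnip3 (-0.45 ± 0.18) and Slc2a12 (0.60 ± 0.24), and for OVX against Sham those of Bnip3l (0.21 ± 0.08), Eno2 (-0.95 ± 0.43) and Pfkfb2 (0.52 ± 0.24), with adjusted p-values of 0.542 to 0.576. The Eno2 value was -0.55 without DAC Sham library 2, and that of Pfkfb2 was 0.33 without DAC OVX library 1.

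Several members followed the amount of skeletal muscle marker RNA from library to library. The 13 muscle markers summed to 0.669, 0.310, 0.210 and 0.682% of counts in OVXE2 gingiva, 0.0817, 0.114, 0.320 and 0.156% in OVX and 0.0412, 0.233, 0.0980 and 0.256% in Sham. In DAC they took 0.110, 0.0456, 0.465 and 0.222% in OVXE2, 0.184, 0.542, 0.209 and 0.321% in OVX and 0.13, 0.491, 0.109 and 0.372% in Sham. The shares overlapped between groups, no marker was at 0 in any group, and all 13 were higher in OVXE2 than in OVX gingiva, 10 of them at an unadjusted p under 0.05 and none past the edgeR test.

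**Figure D5:**
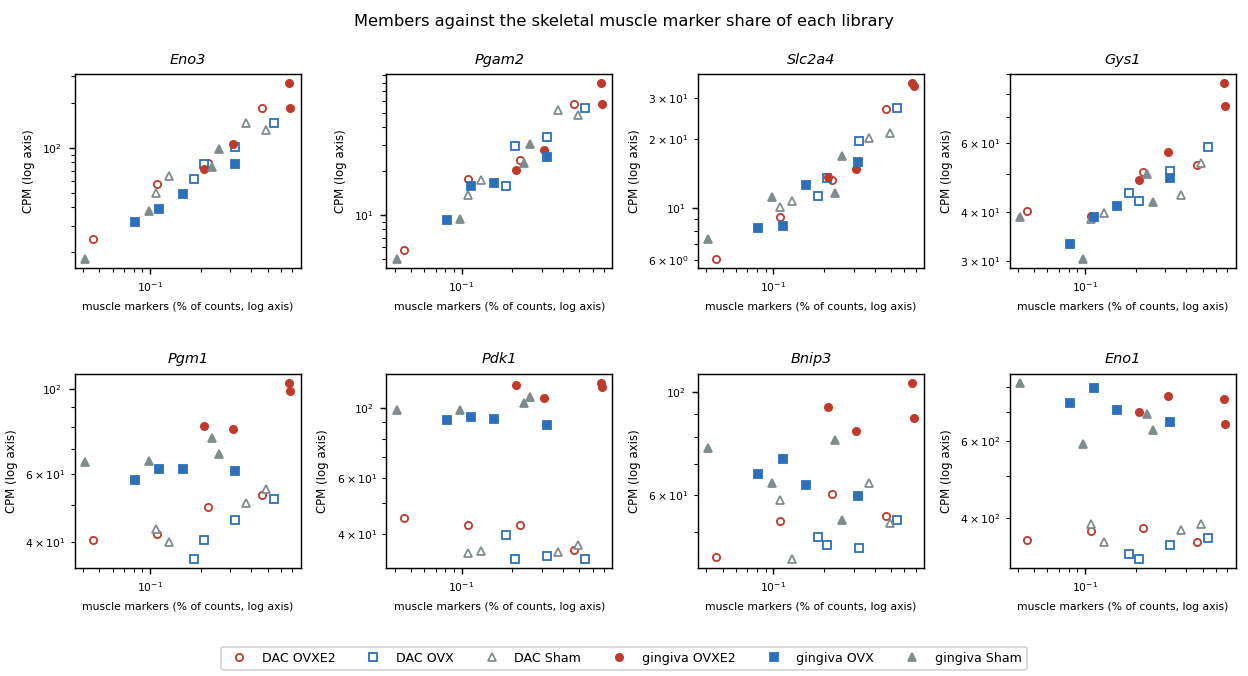
CPM of 8 members against the summed share of 13 skeletal muscle markers in each library, both on log axes, for DAC (open symbols) and gingiva (filled symbols), with CPM scaled within each tissue. Eno3, Pgam2, Slc2a4 and Gys1 climb with the marker share in both tissues, while Eno1 does not.

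Across the 12 libraries of gingiva, the log2 CPM of 11 of 46 members correlated with the log2 marker share, all positively, and in DAC 10 of 48 did, again all positively (permutation test of r, 100000 permutations, adjusted over 142 relations computed, which include 48 for neuron markers in DAC). The lowest r of a member that passed was reached by 3.21% of all genes tested in gingiva and 1.69% of those in DAC, and 0.749% and 0.308% lay as far below 0. Eno3 had r = 0.982 and rho = 0.972 in gingiva (permutation p 1e-05 for each, the smallest the permutations can give; adjusted p 0.000473), r = 0.972 without the 2 libraries farthest from the median and r = 0.976 within groups. Pgam2 had r = 0.98 and rho = 0.965 (permutation p 1e-05 for each), 0.964 without the 2 farthest and 0.964 within groups. Slc2a4 had r = 0.932 and rho = 0.944 (permutation p 2e-05 and 3e-05), 0.915 without the 2 farthest and 0.887 within groups. They were also among the members with the largest positive values for OVXE2 against OVX gingiva, at 1.68 ± 0.54, 1.48 ± 0.58 and 1.1 ± 0.37, none of which passed (adjusted p 0.303, 0.321 and 0.304). Eno3 had 270.4, 105, 71.96 and 185 CPM in OVXE2, 31.8, 39.01, 77.5 and 49.2 in OVX and 17.99, 74.1, 37.96 and 97.4 in Sham gingiva, highest in the libraries with most muscle markers.

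The others in gingiva were Pdk4 (r = 0.905), Pygo1 (0.898), Pdk2 (0.897), Gys1 (0.871), Pfkfb1 (0.844), Ldhb (0.801), Pgm1 (0.772) and Aldoa (0.747), with adjusted permutation p-values of r from 0.00142 to 0.0187. Their r was 0.721 to 0.943 without the 2 libraries farthest from the median and 0.530 to 0.910 within groups. The rank correlation did not pass for Pgm1 (rho = 0.608, adjusted permutation p 0.212) or Aldoa (rho = 0.687, adjusted permutation p 0.0959), and that of Ldhb (rho = 0.741) lay at the threshold. Pdk1, at r = 0.597 and rho = 0.490 (permutation p 0.0412 and 0.109, adjusted 0.189 and 0.431), and Bnip3, at r = 0.4 and rho = 0.308 (permutation p 0.199 and 0.331, adjusted 0.514 and 0.692), did not pass; within groups r was 0.329 and -0.297. In DAC the members that passed were Slc2a4 (r = 0.98), Eno3 (0.972), Pgam2 (0.970), Pfkfb1 (0.867), Pdk2 (0.851), Gys1 (0.844), Aldoa (0.821), Gapdh (0.795), Pgm1 (0.748) and Gpi1 (0.735), with adjusted permutation p-values of r from 0.000473 to 0.0386, r of 0.541 to 0.967 without the 2 farthest libraries and of 0.879 to 0.981 within groups, and Gpi1 did not pass by rank (rho = 0.713, adjusted permutation p 0.0761). With brain neuron markers in DAC, 3 of 48 passed: Eno2 (r = 0.952, rho = 0.790, adjusted permutation p 0.00101 and 0.0298), Pygb (r = 0.822, rho = 0.727, adjusted 0.00905 and 0.0637) and Aldoc (r = 0.794, rho = 0.783, adjusted 0.0126 and 0.0301). Their r without the 2 farthest libraries was 0.9, 0.868 and 0.764, and within groups 0.958, 0.862 and 0.796. Of all genes tested in DAC, 2.36% reached the lowest of these r and 0.0661% lay as far below 0. The points of a relation share depth and library preparation, and the amount of muscle or nerve tissue and the expression of these genes within it cannot be told apart.

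The 3 members never tested were near the limit of detection. Gys2, the liver glycogen synthase, had 14, 9 and 11 counts over the 4 DAC libraries of OVXE2, OVX and Sham mice, against 5, 5 and 5 over the gingival ones, and the intervals of its ratios included 1, such as 2.40-fold (0.815 to 8.5) in OVXE2. Slc2a2, the liver and islet glucose transporter, had 11, 5 and 7 counts in DAC and 2, 1 and 0 in gingiva, which is 4.70-fold (1.03 to 43.7) in OVXE2, 3.89-fold (0.435 to 184) in OVX and at least 2.41-fold higher in Sham DAC, against 3 counts over the group. Slc2a7 had 1, 1 and 0 counts in DAC and 1, 2 and 1 in gingiva, which is under a floor of 3 counts in each group.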

How the data were processed

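RNA-seq counts per gene were deposited for 24 libraries by the authors, in STAR's table with 1 column for each strand setting. Per the submitters' processing notes, fastp, STAR and DESeq2 were used with GRCm38 (mm10); the sources used here give no versions. The column for reads of the opposite strand was used, since the other strand held 3.38 to 9.03% of counts; reads mapping to several places (6.40 to 13.5%) are listed apart and stayed out. Names came from GENCODE M21, which matched 38186 of 38321 IDs.

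Genes were tested with edgeR 4.0.16 (quasi-likelihood, robust, TMM, filterByExpr) in R 4.3.3, with Benjamini-Hochberg adjustment over all tested genes and a threshold of 0.05. Groups within a tissue were compared in the 12 libraries of that tissue (12680 genes in gingiva, 13617 in DAC), and tissues and their interaction with the group in all 24 (14209 genes). DESeq2 1.42.0 and limma-voom 3.58.1 were alternatives, with DESeq2's size factors in place of TMM, no filter on low counts, counts of both strands, the libraries of the compared groups only, each library left out and a replicate block, and 4 settings added after the data were seen. CPM were scaled within a tissue, and RPKM over all 24 libraries and merged exon length. Permutation tests used SciPy 1.17.1 in Python 3.11.15. The gene test was checked on simulated counts with known changes, larger than those of most members between groups within a tissue. That check does not show how often smaller changes are found. Counting intervals are exact at 95% and cover counting error only.

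Replicate numbers were not taken to pair libraries, since the labels do not say that a number is shared. The genes named were chosen by rule: a panel of well-known members, the members past a test or of the 3 smallest p where fewer passed, for the tissues in Sham mice the 8 largest rises and 8 largest falls without overlap, and the 3 members of smallest p of each interaction. Members named beyond these were chosen after their values were seen. The members and all gene lists were chosen with earlier results of these data known. Protein sequences were not used here, and 2 genes of the lists are counted but not reported by name.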

Additional observations from a re-analysis of the deposited data

Results flagged for a closer look

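Among 174 groups of 4 values, for 29 named genes, 7 had a library far apart from the other 3 by Dixon's test of either end. In all 7 it was the highest library. The 1 in 20 that chance gives counts both ends and assumes normal values, which single counts among zeros do not meet. Ldhc had 0.0452 CPM in gingival OVX library 3 and 0.0402 CPM in gingival Sham library 2, each a single count among libraries at 0. Pdk1 had 39.6 CPM in DAC OVX library 1, against 33.2 to 33.9 CPM in the other OVX libraries. Pdk2 had 67.8 CPM in DAC OVX library 2, the DAC library with most muscle markers, against 45.5 to 48.9 CPM in the others. In OVXE2 gingiva, Pfkfb4 had 83.8 CPM in library 1, against 64.4 to 66.2 CPM, and Slc16a1 had 115 CPM in library 2, against 102.6 to 102.9 CPM. Slc2a5 had 4.21 CPM in gingival Sham library 3, against 1.2 to 1.46 CPM.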

How the results depend on the processing

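The counts of members that differed between DAC and gingiva ranged over 34 other settings from 37 to 43 in OVXE2, 39 to 42 in OVX and 39 to 42 in Sham mice, against 41 in each, and no member called in both changed sign. Between OVXE2 and OVX gingiva, where edgeR called 0 members, DESeq2 called 4 (Pdk1, Pgm1, Bnip3 and Gys1), edgeR with no filter on low counts called 1 (Pgm1, adjusted p 0.0428), and leaving out 1 library gave 0 to 2, with 2 only without OVX library 3. DESeq2 called 1 member for OVXE2 against Sham gingiva (Pgm1) and 1 for OVXE2 against Sham DAC (Ldhc), and counts of both strands also gave 1 in DAC (Ldhc, adjusted p 0.0444). The cause was not tested. With a replicate block, the tissue counts were 43 in OVXE2, 41 in OVX and 40 in Sham mice. With that block, 0 members passed within either tissue or for the interactions. Same-numbered libraries deviated together at r over 0.1 in 3 of 12 pairs in gingiva, 5 of 12 in DAC and 2 of 12 across tissues. Such correlations cannot tell whether a number is shared by an animal, since samples of 1 animal need not vary together. Over 4849 settings of 166 named values, 13 calls were lost, 14 gained and 0 reversed; values under the threshold changed sign in 72, and list medians moved by more than their spread in 96. Pdk4 in OVXE2 DAC against gingiva was also lost with no filter on low counts (0.80, adjusted p 0.0958). Low counts limit Ldhc, Slc2a5 and the members never tested, and 4 libraries a group limit every comparison within a tissue.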
